A study of Octopus bimaculoides with 6 samples.

Results

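The 2 libraries from the arm tip of *Octopus bimaculoides* were compared with the 2 libraries taken further up the arm, the medial and the proximal section. The tips were the end pieces of arm L1, up to 1.5 cm long, of 1 adult male (OB-2) and 1 adult female (OB-9). The medial and the proximal section came from arm L1 of another adult male (OB-5) and were cut across the arm, 3.5 cm (medial) and 5.5 cm (proximal) away from its end. A distal section of the same OB-5 arm, at 1.5 cm from the tip, is set beside them as the piece in between, and 1 library of the whole body of a hatchling at 30 days post fertilization (dpf) gives a level outside the adult arm. All adults were wild-caught and euthanized with ethanol, the labels name no treatment, and they describe no separation of the tissues within a piece. Each tip and each section is 1 library, and both sections are pieces of 1 arm of 1 animal, so the position of the piece cannot be told apart from the animal. The only female library is 1 of the tips. Whether tips and sections shared a library preparation or a sequencing run is not stated.

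The level of a transcript is given as TPM, its reads per base of effective length scaled to the same total in every library, recomputed here over the 38556 transcripts with an Ocbimv identifier, without the non-coding RNAs. A transcript was kept when both tips lay above both sections, or both below, and when at least 1 of the 4 libraries reached 1 TPM. Of 32266 transcripts that reached 1 TPM, 21307 were kept, 15629 with the tips higher and 5678 with the tips lower, and 10959 overlapped between the groups. These background shares are 48.4% and 17.6%, and counts in gene lists below are read against them. A gap of at least 2-fold between the nearest tip and section (1 TPM added) was left for 4261 (13.2%) with the tips higher and 1179 (3.65%) with the tips lower. The direction of every kept transcript is fixed by how it was chosen, so its direction is a description and not a finding. Just inside the limit lay AAAD, with 13.1 and 17.5 TPM in the tips and 10.7 and 13.0 TPM in the sections. Just outside it lay MPU1, with 20.7 and 23.1 TPM in the tips and 19.9 and 20.9 TPM in the sections. On the other side, CDC73 was just inside with 10.503 and 17.0 TPM in the tips and 17.6 and 17.8 TPM in the sections, and NAS39 just outside with 29.4 and 34.2 TPM in the tips and 34.0 and 38.9 TPM in the sections.

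An octopus arm is a muscular hydrostat: a dense muscle mass surrounds an axial nerve cord, and suckers with sensory cells and their own ganglia line one side. The arm grows and adds new suckers at its tip, and a lost tip regenerates. The tip is therefore the youngest part of the arm, while the sections further up hold older suckers and thicker muscle. Only 561 of the 38556 transcripts (1.46%) carry a protein name in the sources used here, 411 from the study's protein matches and 150 from its lists of epigenetic factors. Of the named transcripts 501 were compared and 358 kept. No named transcript matched the lists for muscle, skin and mucus, light reflection or nicotinic-like receptors, so muscle and skin could not be checked by name. The 14 transcripts of the nerve list were all measured in both groups. They summed to 582 and 568 TPM in the tips, 402 and 404 TPM in the sections and 1048 TPM in the distal section.

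How many transcripts lay higher in the tips depended on the scaling. The median log2 ratio of tips to sections over all 32266 compared transcripts, on the log2(TPM + 1) scale, was 0.49, not 0, so each ratio below is read against 0.49. On this scale the ratio of a weakly expressed transcript is too small. In whole pieces of arm, fewer cells of a type and less RNA per cell cannot be told apart. With TMM factors (trimmed mean of M-values, which scale the libraries so that a middle set of transcripts has equal levels) the median was 0.11 and the split was 10854 with the tips higher (33.6%) and 9565 with the tips lower (29.6%). All 10854 were among the 15629, and all 5678 stayed lower, but 4247 of the 15629 overlapped and 528 lay lower in the tips under TMM. With the deposited TPM, which includes the non-coding RNAs, the median was 0.02. Values that moved with the groups were the summed estimated counts of Ocbimv transcripts (4381747 and 4416684 in the tips, 6085753 and 6165829 in the sections), the fragment length, taken as the median of length minus effective length (217 and 186 bases in the tips, 245 and 243 bases in the sections) and the share of deposited TPM in Ocbimv transcripts (38.4% and 36.5% in the tips, 60.2% and 52.7% in the sections). The distal section had 2812216 counts, 210 bases and a share of 36.6%, and the hatchling 8201002 counts, 206 bases and 36.6%. In fragment length and share both lay between the 2 tips. The part of these values in the results was not tested. A count of 0 allowed up to 0.799 and 0.849 TPM in the tips and 0.537 and 0.556 TPM in the sections. In the distal section it allowed up to 1.33 TPM. These limits are for an effective length of 1000 bases (3 counts, counting error only).

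**Figure D1:**
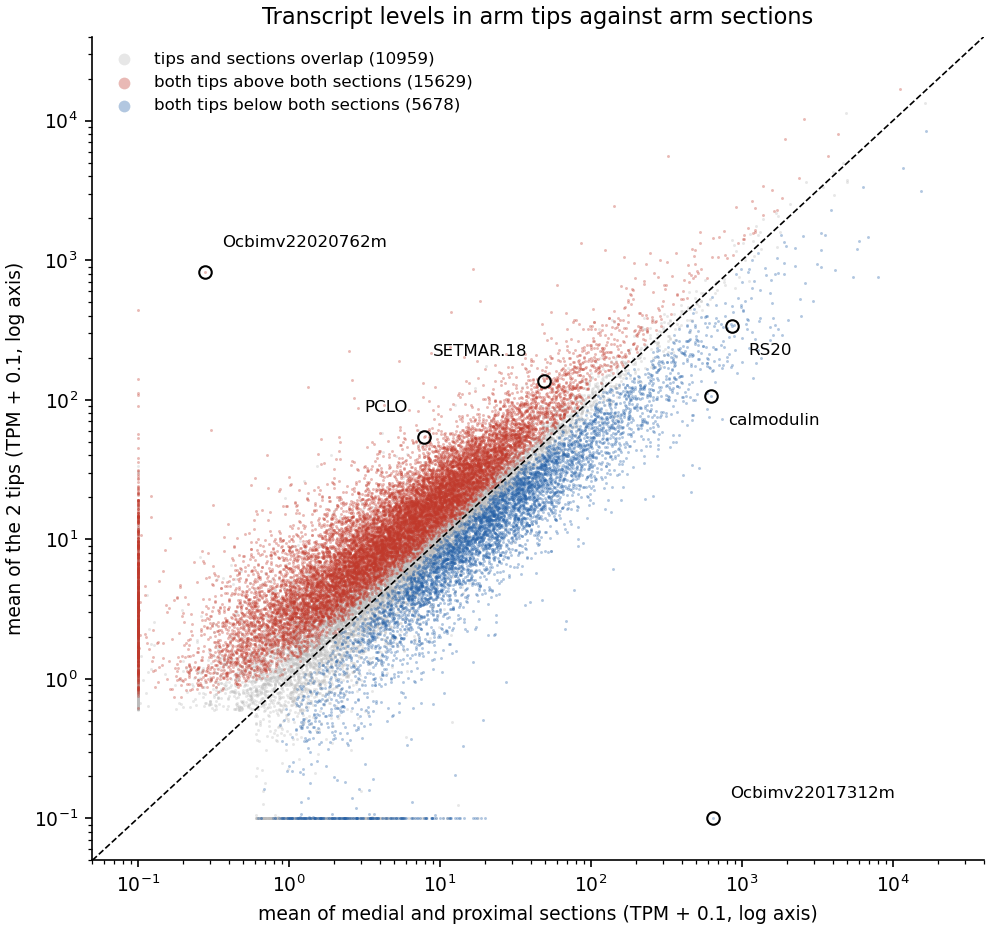
Each point is 1 of 32266 transcripts, with the mean TPM of the medial and proximal sections on the x axis and the mean TPM of the 2 tips on the y axis (0.1 added, log axes). Red points (15629) have both tips above both sections, blue points (5678) both tips below, and grey points (10959) overlap. The dashed line marks equal levels. Ocbimv22020762m stands alone at the upper left and Ocbimv22017312m at the lower right.

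The kept transcripts differed in level. Among transcripts with a mean of 10 to 30 TPM over the 4 libraries, 54.9% had both tips higher and 20.2% both lower. Among the 307 with 300 to 1000 TPM the shares were 26.1% and 53.1%. The same shift along the level was seen with TMM scaling, from 38.3% higher and 36.1% lower at 10 to 30 TPM to 15.0% higher and 64.5% lower at 300 to 1000 TPM. So abundant transcripts lay lower in the tips more often than transcripts of middle level did, under both scalings. Length also differed. Of the 496 transcripts of 8000 bases or more, 66.7% had both tips higher and 5.6% both lower, against 46.6% and 24.8% of those of 1000 to 2000 bases. With TMM scaling the shares of the longest class were 43.5% and 17.9%, against 32.4% and 38.5% at 1000 to 2000 bases. The part of the fragment length in the shares by length was not tested.

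**Figure D2:**
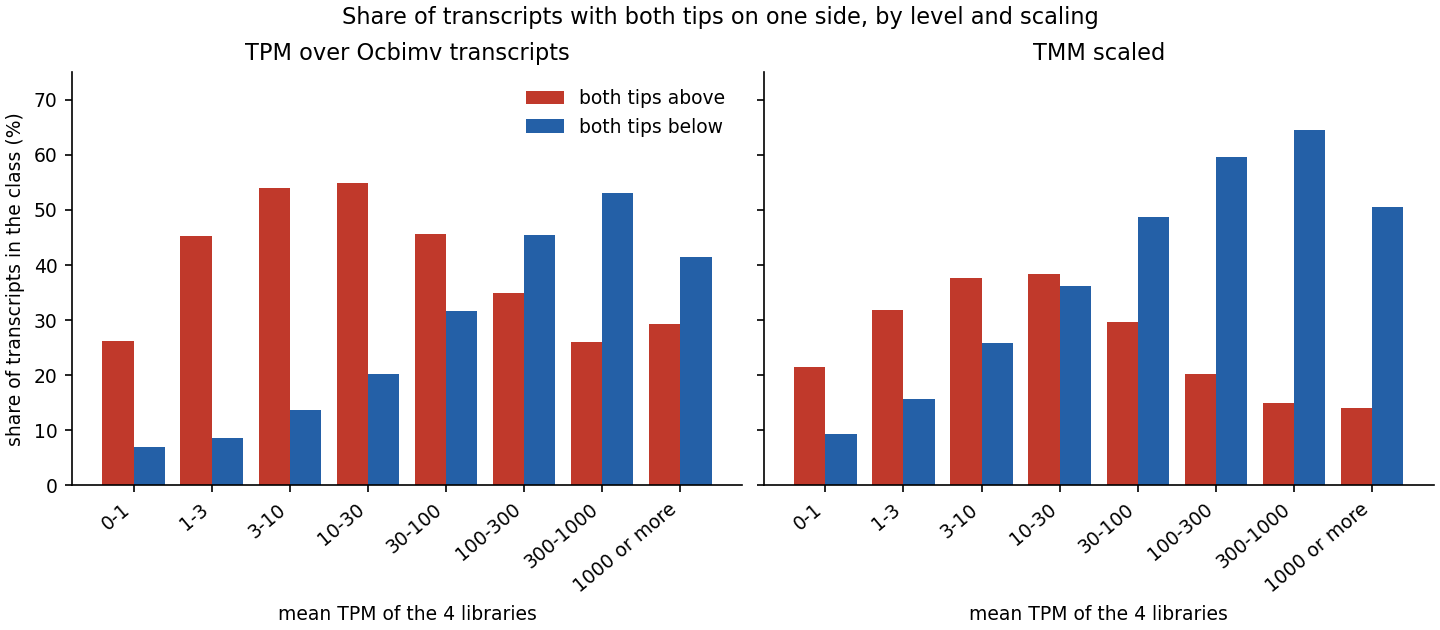
Bars give the share (%) of transcripts in each class of mean TPM (x axis) with both tips above (red) or both below (blue) both sections, on TPM over Ocbimv transcripts at the left and TMM scaled at the right. On both scalings the blue share is larger than the red one from 100 TPM upward.

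The distal section and the hatchling were not used to choose the kept transcripts. For the 15629 with the tips higher, the median level was 11.2 and 12 TPM in the tips, 7.16 TPM in the distal section, 4.65 and 4.74 TPM in the 2 sections, and the hatchling had 4.71 TPM. Over all 32266 compared transcripts, these medians were 8.34, 9.45, 7.36, 5.81, 5.84 and 5.54 TPM in the same order. For the 5678 with the tips lower, the medians were 10.6 and 12 TPM in the tips, 20.3 TPM in the distal section, 21.6 and 21.5 TPM in the sections, and the hatchling had 20.03 TPM. On this scale the distal median lay between those of tips and sections for the first group and close to the sections for the second. With TMM scaling it lay in between for both groups. For the 10854 higher on both scalings, the medians were 9.9 and 9.3 in the tips, 5.76 in the distal section and 4.37 and 4.50 in the sections. For the 5678, they were 9.18 and 9.10 in the tips, 17.98 in the distal section and 24.65 and 24.11 in the sections. The distal section comes from the same arm of the same animal as the 2 sections, so it differs from them in position, with a single library for each piece. From the tips it differs in animal.

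**Figure D3:**
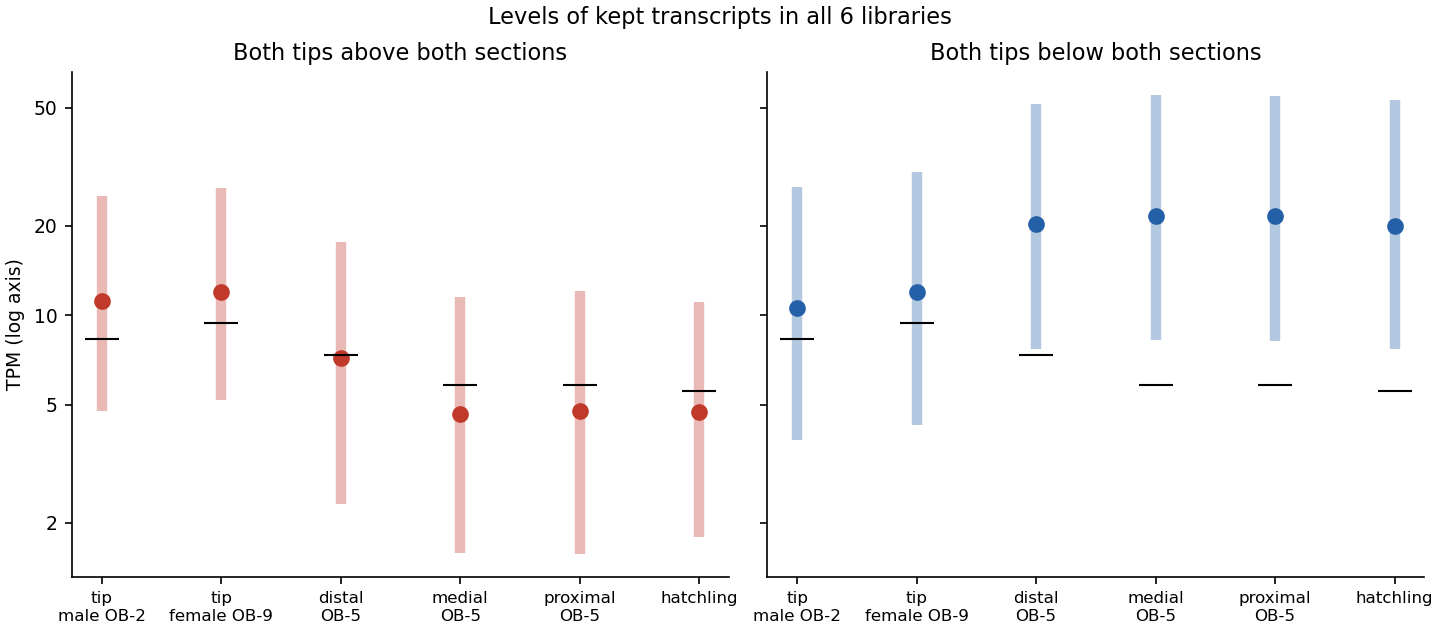
Median (dot) and quartiles (bar) of the TPM of kept transcripts in the 6 libraries on a log axis, with the median over all 32266 compared transcripts as a black dash. At the left both tips are above both sections, with a distal median of 7.16 TPM. At the right both tips are below, with a distal median of 20.3 TPM.

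Differences were tested with edgeR's quasi-likelihood test, with the animal as the replicate: 2 tips against the medial and proximal counts summed into 1 sample. None of 24469 transcripts passed an adjusted p of 0.05 (0% called, smallest adjusted p 0.101, Benjamini-Hochberg). At an unadjusted p under 0.05, 6511 did, 2584 higher and 3927 lower in the tips. DESeq2 on the same 3 samples called 289 higher and 965 lower, and limma on log2(TPM + 1) called 0. With the medial and proximal sections entered as 2 samples, edgeR called 2541 of 23232 higher (10.9%) and 3463 lower (14.9%), but these pieces share an animal, so that fit treats 1 animal as 2 replicates and its p-values are too small. For each transcript below, p is the adjusted p of the first fit unless the fit with 2 sections is named. No transcript is called changed. The p-values of the first fit rest only on the spread between the 2 tips, pooled over transcripts. No spread between animals was measured on the section side. The named transcripts with the widest gaps were chosen after their values were seen, because the rule that picked them among transcripts past the threshold left none.

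The widest gap in favour of the tips belonged to Ocbimv22020762m, a transcript of 3080 bases with no protein name. It had 857 TPM in the male tip, 791 TPM in the female tip and 371 TPM in the distal section, but 0.36 TPM in the medial section and no count in the proximal one. The hatchling had 5.47 TPM. Its estimated counts were 10697 and 9458 in the tips against 7 and 0 in the sections (adjusted p = 0.101, edgeR). Both tips and the distal section, of 3 animals, thus carried it, and both pieces further up OB-5 almost lacked it. A second unnamed transcript, Ocbimv22031480m, is shorter than 300 bases and had 490 and 388 TPM in the tips with none counted in the other 4 libraries, at least 28.1-fold higher than the limit for 3 counts per library in the sections. In the other direction, Ocbimv22017312m, of 285 bases, had 609 and 681 TPM in the sections, with none counted in the tips, the distal section or the hatchling. It was at least 125-fold lower in the tips (3 counts per library). Ocbimv22017777m, of 943 bases, had 20.2 and 13.7 TPM in the sections and 19.4 TPM in the distal section, with none counted in the tips. Of the 50 transcripts with the widest gap and the tips higher (at least 10 TPM in both tips), 37 are shorter than 300 bases and 40 had no counts in either section. Short transcripts get few fragments and their levels are the least precise.

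Among named transcripts with at least 10 TPM in both tips, piccolo (PCLO), a large scaffold protein of the presynaptic active zone in vertebrates, had the widest gap in favour of the tips. The transcript Ocbimv22016351m, of 3096 bases, had 54.9 and 53.0 TPM in the tips, 27.1 TPM in the distal section, 5.65 and 9.85 TPM in the 2 sections, and the hatchling had 8.25 TPM. The mean of the tips was 6.96-fold that of the sections, and the fitted log2 fold change under TMM was 2.26 ± 0.30 (SE, adjusted p = 0.101, edgeR). The neighbouring identifier Ocbimv22016350m, of 663 bases and also named piccolo, had 59.4 and 56.8 TPM in the tips and 6.71 and 11.2 TPM in the sections. They may be parts of 1 gene, and summed they gave 114 and 110 TPM in the tips, 51.3 TPM in the distal section and 12.4 and 21.0 TPM in the sections. The tips lay close together, both sections were far lower, and the distal section was in between.

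Piccolo is not among the 14 transcripts of the nerve list, which were less far apart. The 2 transcripts named for Shab, a voltage-gated potassium channel first described in *Drosophila*, summed to 83.0 and 79.1 TPM in the tips, 56.4 TPM in the distal section, 25.9 and 28.6 TPM in the sections, and the hatchling had 29.9 TPM. GRM5, a metabotropic glutamate receptor, had 12 and 12.3 TPM in the tips and 4.29 and 4.89 TPM in the sections, with 4.90 TPM in the distal section (adjusted p = 0.236, edgeR). Synaptotagmin-11 (Ocbimv22002123m), of a family of vesicle proteins, had 38.1 and 46.1 TPM in the tips, 26.3 and 25 TPM in the sections and 64.0 TPM in the distal section. A second entry of that name, Ocbimv22002124m, had 65.3 and 66.6 TPM in the tips and 53.2 and 57.2 TPM in the sections. Its distal level was 161 TPM, and it lay lower in both tips with TMM scaling. Complexin, which binds the vesicle fusion machinery, had 187 and 173 TPM in the tips, 126 and 120 TPM in the sections and 328 TPM in the distal section. For synaptotagmin-11 and complexin the distal section of OB-5 lay above both tips. Synaptotagmin-1 (Ocbimv22021175m), the calcium sensor of vesicle release, had 58.1 and 71.9 TPM in the tips against 85.1 and 83.7 TPM in the sections and 272 TPM in the distal section. Its other entry, Ocbimv22021174m, lay on the other side, with 36.0 and 30.1 TPM in the tips and 29.6 and 21.0 TPM in the sections. That entry overlapped with TMM scaling. Of the 14 nerve transcripts, 11 lay higher in both tips, 2 lower and 1 overlapped, with a median log2 ratio of 0.62 beside 0.49 for all transcripts. With TMM scaling the counts were 5, 4 and 5, close to the background of 33.6% and 29.6%. None passed the test with 1 summed section.

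Other named transcripts with wide gaps in favour of the tips were picked for those gaps and form no common list. ROR1 (Ocbimv22007479m), a Wnt receptor kinase, had 9.65 and 10.4 TPM in the tips, 9.20 TPM in the distal section and 2.25 and 2.32 TPM in the sections, a 4.38-fold difference of the means (adjusted p = 0.101, edgeR). Its neighbour Ocbimv22007480m also carries that name, and summed they had 23.6 and 21.9 TPM in the tips, 14.2 TPM in the distal section, 4.06 and 6.68 TPM in the sections, and the hatchling had 24.4 TPM. CYFP2, a partner of the actin-regulating WAVE complex, had 7.53 and 10.9 TPM in the tips and no counts in the other 4 libraries, at least 15.9-fold higher than the limit for 3 counts per library. PTPRE, a receptor tyrosine phosphatase, had 20.6 and 16.5 TPM in the tips, 5.09 and 3.72 TPM in the sections and 3.36 TPM in the distal section, so here the distal section was at the level of the sections. MYO3B, an unconventional myosin, had 30.5 and 31.4 TPM in the tips and 34.5 TPM in the distal section, against 11.4 and 11.7 TPM in the sections. SCAI, a regulator of transcription, had 22.5 and 22.5 TPM in the tips and 27.3 TPM in the distal section against 7.72 and 8.43 TPM in the sections. HS3SA, an enzyme that sulfates heparan, had 15.7 and 18 TPM in the tips, 15.8 TPM in the distal section and 4.96 and 5.72 TPM in the sections. MYO3B, SCAI and HS3SA were thus at similar levels in the tips and the distal section, of 3 animals, and lower in both sections. For ROR1 this held for Ocbimv22007479m and not for the sum of both identifiers. Fragment length and the share of deposited TPM in Ocbimv transcripts divided these libraries in the same way. Their part in these levels was not tested.

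**Figure D4:**
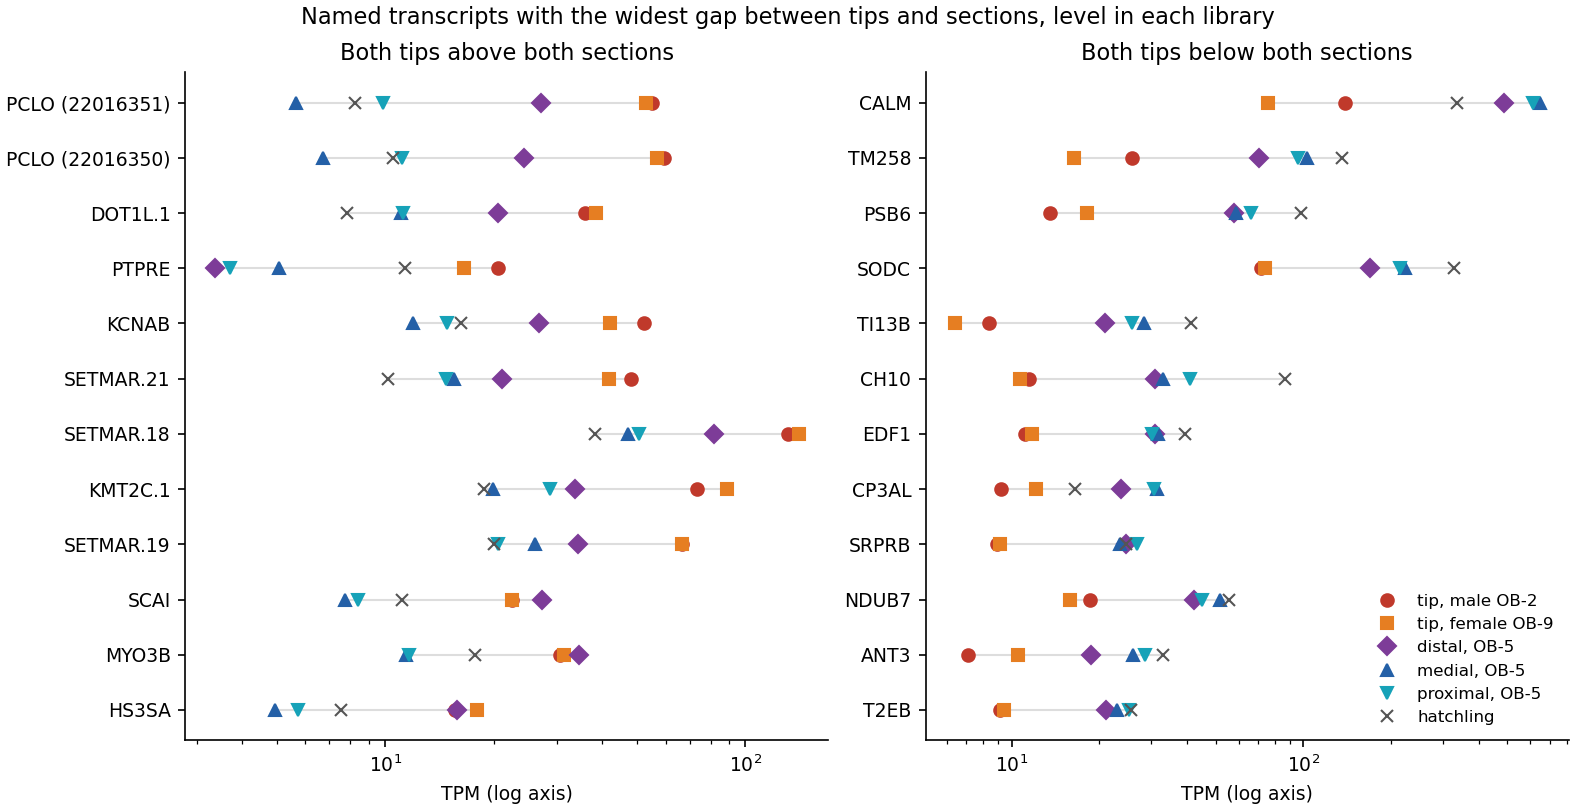
Level in each of the 6 libraries (TPM, log axis) of the 12 named transcripts per direction with the widest gap and at least 10 TPM in both libraries of the higher side. Circles and squares are the tips, diamonds the distal section, triangles the medial (up) and proximal (down) sections and crosses the hatchling. The tips lie to the right of both sections in the left panel and to the left of them in the right panel, and the distal section changes sides among transcripts. PTPRE has it at 3.36 TPM with the sections and MYO3B at 34.5 TPM with the tips.

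Calmodulin, the calcium sensor of many cell types including muscle, had the widest gap in favour of the sections among named transcripts with at least 10 TPM in both sections. Its transcript Ocbimv22007343m, whose best match is a plant calmodulin, had 139 and 75.5 TPM in the tips, 487 TPM in the distal section, 644 and 613 TPM in the 2 sections, and the hatchling had 337 TPM. The sections were 5.88-fold the tips and the fitted log2 fold change was -2.96 ± 0.49 (SE, adjusted p = 0.101, edgeR). The tips differed from each other more than the sections did, but both lay far below the other 4 libraries.

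All 3 named ribosomal transcripts, RS20, RS5 and RL40, lay lower in both tips, as did both named mitochondrial chaperones, CH10 and CH60. RS20, of the small subunit, had 294 and 381 TPM in the tips, 735 TPM in the distal section, 862 and 849 TPM in the sections, and the hatchling had 806 TPM. RS5 had 105 and 151 TPM in the tips and 322 and 319 TPM in the sections, and RL40, a fusion of ubiquitin with a large-subunit protein, had 107 and 147 TPM in the tips and 233 and 226 TPM in the sections. PSB6 and SRPRB belong to neither list and were picked for their wide gaps. PSB6, a catalytic subunit of the proteasome, had 13.6 and 18.1 TPM in the tips, 58.0 TPM in the distal section and 58.6 and 66.1 TPM in the sections. Of the chaperones, CH10 had 11.5 and 10.7 TPM in the tips and 33.0 and 41.0 TPM in the sections, and CH60, its partner, 19.8 and 20.6 TPM against 32.6 and 34.7 TPM. SRPRB, which docks ribosomes to the endoplasmic reticulum, had 8.92 and 9.15 TPM in the tips and 23.6 and 26.9 TPM in the sections. The median log2 ratio was -1.34 for the 3 ribosomal transcripts (-1.82 with TMM scaling) and -1.18 for the 2 chaperones (-1.63 with TMM scaling). In the fit with 2 sections all 5 passed the threshold and were lower in the tips, beside 14.9% of all transcripts, and in the fit with 1 section none did. The named ribosomal transcripts are 3 of many, and their choice rests on which names were available. They are abundant, and abundant transcripts as a whole lay lower in both tips more often. The share was 45.5% at 100 to 300 TPM and 53.1% at 300 to 1000 TPM (59.7% and 64.5% with TMM scaling). At 10 to 30 TPM, the class of the chaperones, it was 20.2% (36.1% with TMM scaling).

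The respiration list had a single member, NDUB7, which lay lower in both tips, and the other transcripts given with it were picked for their wide gaps in favour of the sections. NDUB7, a subunit of respiratory complex I, had 18.5 and 15.9 TPM in the tips, 42.2 TPM in the distal section and 51.8 and 45.0 TPM in the sections. SODC, the copper-zinc superoxide dismutase, had 71.7 and 73.8 TPM in the tips, 169 TPM in the distal section, 222 and 215 TPM in the sections, and the hatchling had 327 TPM. TI13B, which helps to import proteins into mitochondria, had 8.33 and 6.40 TPM in the tips and 28.3 and 25.9 TPM in the sections. TM258, part of the enzyme that adds sugars to proteins, had 25.9 and 16.4 TPM in the tips and 103 and 95.9 TPM in the sections. EDF1, a transcriptional coactivator, had 11.1 and 11.7 TPM in the tips and 31.9 and 30.2 TPM in the sections. For NDUB7, SODC, TI13B and TM258 the distal section lay below both sections and above both tips. For EDF1, with 31.1 TPM, it lay among the sections. Ratios of this group lay on the same side under TMM scaling and under the deposited TPM.

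The most abundant kept transcripts have no protein name. With the tips lower, Ocbimv22013417m (2054 bases) had 11295 and 5577 TPM in the tips and 18047 and 15305 TPM in the sections, and Ocbimv22014552m (228 bases) had 2724 and 3523 TPM in the tips and 15470 and 15366 TPM in the sections. With the tips higher, Ocbimv22009989m (324 bases) had 13819 and 19820 TPM in the tips and 12370 and 9958 TPM in the sections, and its ratio changed sign under the deposited TPM. Ocbimv22024494m (303 bases) had 14132 and 6473 TPM in the tips and 1331 and 3828 TPM in the sections. The hatchling level was 146 TPM. The tips and the sections each differed from one another by more than 2-fold for that transcript.

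Of the named transcripts, 150 come from the study's lists of epigenetic factors, so these enzymes are many among the names. SETMAR encodes a histone methyltransferase joined to a transposase in primates, and the study lists 39 transcripts under that name in the octopus. Of 38 compared, 34 lay higher in both tips (89.5%, beside 48.4% of all transcripts), 2 lower and 2 overlapped, with a median log2 ratio of 1.14 beside 0.49. With TMM scaling, 30 lay higher and 4 lower, beside 33.6% and 29.6%, with a median of 0.69 beside 0.11. The family was set apart after its values were seen. SETMAR.18 had 132 and 141 TPM in the tips, 81.6 TPM in the distal section, 47.1 and 50.6 TPM in the sections, and the hatchling had 38.2 TPM (adjusted p = 0.168, edgeR). SETMAR.21 had 48.1 and 41.9 TPM in the tips and 15.6 and 14.7 TPM in the sections, with 21.2 TPM in the distal section. Exceptions were SETMAR.30, with 26.9 and 32.4 TPM in the tips and 42.2 and 49.8 TPM in the sections, and SETMAR.20, with 3.15 and 3.46 TPM against 5.29 and 4.00 TPM. Reads of similar copies may be split among them, so the level of 1 copy is uncertain, and 38 copies are not 38 separate measurements. Of the 35 copies in the fit with 2 sections, 19 passed higher and 1 lower, beside 10.9% and 14.9% of all transcripts. The p-values of that fit are too small, and none of the 35 passed in the fit with 1 section. SETMAR.18 and SETMAR.21 have 4217 and 4239 bases. Of all transcripts of 4000 to 8000 bases, 58.5% lay higher in both tips (38.6% with TMM scaling).

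The other 46 compared members of the extended list of histone methyltransferases had 29 higher in both tips (63.0%), 1 lower and 16 overlapping, with a median log2 ratio of 0.83. With TMM scaling 25 lay higher and 6 lower, with a median of 0.42. KMT2C.1, of the family that methylates lysine 4 of histone H3 at enhancers, had 73.4 and 89.1 TPM in the tips, 33.6 TPM in the distal section and 19.9 and 28.6 TPM in the sections. KMT2A, the founding MLL enzyme, had 44.0 and 44.9 TPM in the tips, 17.5 TPM in the distal section and 16.3 and 17.3 TPM in the sections, where the distal section was at the level of the sections. DOT1L.1, which methylates lysine 79 of histone H3, had 35.8 and 38.5 TPM in the tips, 20.6 TPM in the distal section, 11 and 11.2 TPM in the sections, and the hatchling had 7.82 TPM. Its fitted log2 fold change was 1.20 ± 0.27 (SE, adjusted p = 0.114, edgeR). The member that lay lower was SMYD3.2, a lysine methyltransferase, with 10.4 and 29.3 TPM in the tips and 47.8 and 57.7 TPM in the sections. A neighbouring identifier, KMT2A.1, had 13.1 and 19.0 TPM in the tips and 9.19 and 12.4 TPM in the sections and overlapped with TMM scaling. KMT2C.1 has 7659 bases and KMT2A 13747, and long transcripts as a whole lay higher in the tips more often. The share was 58.5% at 4000 to 8000 bases, the class of KMT2C.1, and 66.7% at 8000 bases or more, the class of KMT2A. With TMM scaling these shares were 38.6% and 43.5%.

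The main list of histone methylation writers and erasers, which shares members with the extended one, was nearer the background: of 33 compared, 17 lay higher (51.5%), 3 lower and 13 overlapped, with a median log2 ratio of 0.39. With TMM scaling 11 lay higher, 8 lower and 14 overlapped, with a median of 0.07. KDM6A.1, of the family that removes methyl groups from lysine 27 of histone H3, had 78.3 and 88.7 TPM in the tips, 40 TPM in the distal section and 35.4 and 31.4 TPM in the sections. KDM8.1 had 39.5 and 15.5 TPM in the tips and 5.66 and 5.13 TPM in the sections, and its neighbour KDM8.2 overlapped, with 10.49 and 32 TPM in the tips and 12.9 and 15.8 TPM in the sections. Summed they had 50 and 47.4 TPM in the tips and 18.6 and 21.0 TPM in the sections. EZH2, the catalytic subunit of Polycomb complex 2, had 26.8 and 31.1 TPM in the tips and 17.4 and 17.8 TPM in the sections. EED.1, a short copy of another subunit of that complex, had 4.72 and 7.31 TPM in the tips and 23.9 and 16.2 TPM in the sections, from 2 and 3 estimated counts in the tips, and was too low to enter the test.

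For histone acetylation, 14 of 30 compared transcripts lay higher (46.7%, at the background), 2 lower and 14 overlapped, with a median log2 ratio of 0.44. With TMM scaling 11 lay higher and 9 lower, with a median of 0.12. The acetyltransferases KAT6A and KAT6B.1 had 44.4 and 36.5 TPM, and 45.4 and 46.4 TPM, in the tips against 13.7 and 17.4 TPM, and 18.5 and 18.6 TPM, in the sections. HDAC1.1, a deacetylase, had 18.6 and 22.3 TPM in the tips and 9.69 and 7.60 TPM in the sections, but its neighbour HDAC1, of nearly the same length, had 4.77 and 4.97 TPM against 5.38 and 12.2 TPM. Summed they gave 23.4 and 27.3 TPM in the tips and 15.1 and 19.8 TPM in the sections, so the ratio on the log2 scale was 0.52 instead of 1.16. HDAC6.1, of 500 bases, had no counts in the tips and 11.4 and 9.35 TPM in the sections, from 18 and 15 estimated counts. The tips were at least 3.79-fold lower than the sections, with the limit of 3 counts per library standing in for the tips. With its neighbour HDAC6 added, the tips had 6.19 and 4.48 TPM and the sections 12.3 and 11.8 TPM.

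Of the 12 DNA methylation transcripts 7 lay higher in both tips (58.3%, beside 48.4%), 2 lower and 3 overlapped. DNMT1, the enzyme that copies methylation after replication, had 16 and 16.6 TPM in the tips, 12.2 TPM in the distal section and 9.27 and 10.4 TPM in the sections. UHRF1, which recruits DNMT1 to newly made DNA, lay on the other side, with 5.71 and 5.25 TPM in the tips, 6.27 TPM in the distal section and 7.31 and 7.34 TPM in the sections. The fitted log2 fold changes were 0.19 ± 0.26 for DNMT1 (adjusted p = 0.659, edgeR) and -0.92 ± 0.27 for UHRF1 (SE, adjusted p = 0.147, edgeR). TET2, which oxidizes methylated cytosine, had 28.7 and 26.5 TPM in the tips and 16.3 and 16 TPM in the sections. MBD5, a methyl-CpG-binding domain protein, had 58 and 63 TPM in the tips and 28.7 and 33 TPM in the sections. With TMM scaling 6 of the 12 lay higher and 4 lower.

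**Figure D5:**
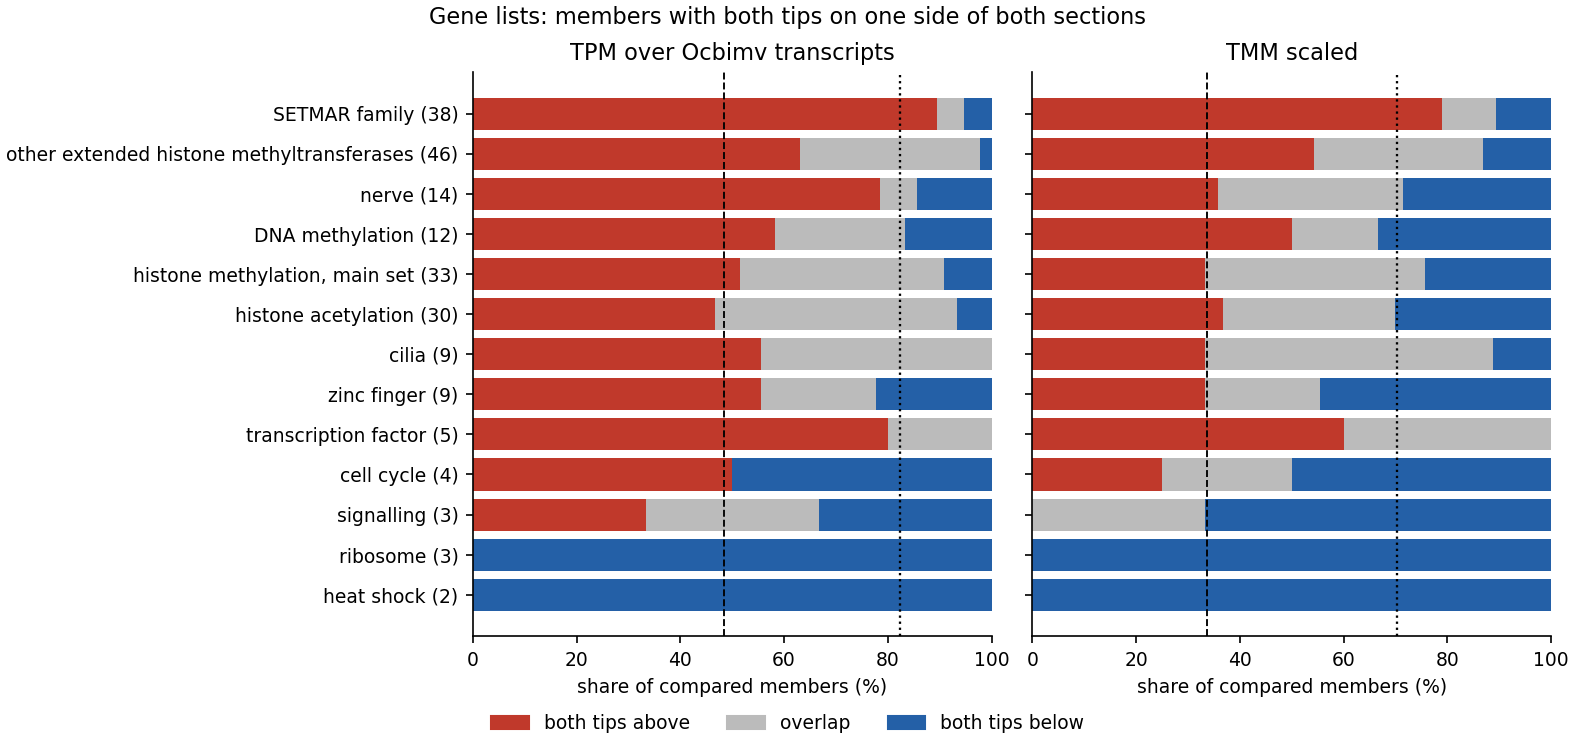
Bars give, for each gene list (number of compared members in brackets), the share (%) of members with both tips above (red), overlapping (grey) or both below (blue) both sections, on TPM over Ocbimv transcripts at the left and TMM scaled at the right. The dashed line is the share of all 32266 compared transcripts with the tips higher (48.4% and 33.6%) and the dotted line 100% minus the share with the tips lower (17.6% and 29.6%). SETMAR transcripts pass the dashed line on both scalings (89.5% at the left), while the named ribosomal transcripts are blue throughout.

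Named regulators of development were few. The lists in this paragraph are small and stand beside 48.4% higher and 17.6% lower among all transcripts. With TMM scaling these shares were 33.6% and 29.6%. Of 5 compared transcription factors, 4 lay higher in both tips and 1 overlapped, with a median log2 ratio of 1.04. With TMM scaling 3 lay higher and none lower. HOX7P, a homeobox protein of the Msx type, had 11.7 and 13.7 TPM in the tips, 9.44 TPM in the distal section, 4.85 and 6.04 TPM in the sections, and the hatchling had 2.32 TPM. MKX, the homeobox protein Mohawk that acts in tendon and muscle of vertebrates, had 64.5 and 102 TPM in the tips and 46.4 and 63.0 TPM in the sections, and its ratio changed sign under the deposited TPM. Of the 3 signalling transcripts 1 lay higher, 1 lower and 1 overlapped, and with TMM scaling none lay higher and 2 lower. In that list NOTC2, a Notch receptor, had 90.9 and 74.3 TPM in the tips and 45.5 and 59.3 TPM in the sections and overlapped with TMM scaling, while FZD10, a Wnt receptor, had 28 and 23.9 TPM in the tips, 44.4 TPM in the distal section and 40.2 and 41.0 TPM in the sections. The 4 cell-cycle transcripts were split: CNDD3, of condensin II, had 20 and 19.8 TPM in the tips and 10.2 and 10.9 TPM in the sections, and SKA2, of the kinetochore, 33.1 and 31.6 TPM against 34.7 and 38.6 TPM. Among 9 cilia transcripts, 5 lay higher (55.6%, near the share of all transcripts) and none lower. The 9 summed to 52.5 and 29.0 TPM in the tips and 40.5 and 25.8 TPM in the sections. With TMM scaling 3 of the 9 lay higher and 1 lower. SPG16 (Ocbimv22000310m), of the axoneme, had 12.4 and 10.4 TPM in the tips and 4.68 and 1.62 TPM in the sections. Its neighbour Ocbimv22000309m, also named SPG16, had 3.47 and 2.79 TPM in the tips and 1.83 and 2.54 TPM in the sections. That neighbour overlapped with TMM scaling. The pair summed to 15.9 and 13.2 TPM in the tips and 6.5 and 4.2 TPM in the sections. Of 9 zinc finger transcripts, 5 lay higher (55.6%, also near that share) and 2 lower. With TMM scaling the balance turned to 3 higher and 4 lower. The 7 compared transcripts named for transposases or transposase-derived domains, a list gathered after the values were seen, all lay higher in both tips, beside 48.4% of all transcripts. With TMM scaling 6 of the 7 did, beside 33.6%. An example was TC3A, with 81.2 and 85.3 TPM in the tips and 39.6 and 42.7 TPM in the sections.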

How the data were processed

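RNA libraries depleted of ribosomal RNA were sequenced by the authors as paired-end reads. The submitters' processing notes name FastQC 0.11.5, Trimmomatic 0.36 and kallisto, which was run by the authors with its bias correction on the species' genome annotation. Only the hatchling reads were also trimmed with fastp. The authors deposited, for each of 40327 targets, an estimated count, the length and effective length, and TPM over all targets. The versions of kallisto and of that annotation are not given in the sources used here. TPM was recomputed over the 38556 Ocbimv targets from estimated counts and effective lengths; the 1771 non-coding RNA targets were left out. Ratios are mean log2(TPM + 1) of the tips minus that of the sections. For the test, estimated counts were rounded to whole numbers and fitted with edgeR 4.0.16 in R 4.3.3 (TMM, filterByExpr, Benjamini-Hochberg adjusted p of 0.05), with 1 residual degree of freedom. DESeq2 1.42.0 and limma 3.58.1 were alternatives. On simulated data with 200 transcripts changed 4-fold among 23484, this fit gave the right direction for all 200 and called 20. With the sections as 2 samples, 198 of 200 were tested among 23017, all 198 had the right direction and 81 were called. The simulation drew every library independently, with a common spread and no difference between animals. It changed only transcripts with at least 20 expected counts, so its numbers of calls do not carry over to these data. Other settings were the scaling, the minimum level, the gap and leaving out each library. Tables were made with Python, pandas and numpy.

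Transcripts with a name were chosen as the 12 with the widest gap per direction (at least 10 TPM in both libraries of the higher side), the 3 most abundant per direction, up to 4 per gene list (at least 5 TPM) and UHRF1 and DNMT1. The rule first required the test's threshold, which none passed, so the widest gaps were chosen after their values were seen, as were examples of lists outside it (complexin, synaptotagmin-1, KMT2A, EZH2, SMYD3.2, SETMAR.20, SETMAR.30, TC3A, CYFP2 and ROR1). The kept transcripts and all lists were chosen with earlier results of these data known. The neighbours KDM8.2, KMT2A.1, HDAC1 and HDAC6 and the second entries of synaptotagmin-11, synaptotagmin-1 and SPG16 are named beside their pair. Names come from the study's tables, by best protein match, often to another species. The RefSeq gene table of the species matched none of the identifiers, so no coordinates or sequences are given.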

Additional observations from a re-analysis of the deposited data

How the results depend on the processing

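No paired analysis was possible because the labels give tips and sections no shared animal: the tips are of OB-2 and OB-9, and both sections of OB-5.

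The number of transcripts with both tips higher (15629) became 8866 with the deposited TPM, 9238 with at least 10 TPM in a library, 4261 with a gap of at least 2-fold and 587 with a gap of at least 4-fold. The number with both tips lower (5678) became 10048 with the deposited TPM, 9565 with TMM scaling, and 1179 and 142 with gaps of 2-fold and 4-fold. The 8866 and 10048 rest on another set of transcripts. Over the same 32266 transcripts, the deposited TPM gave 9637 higher (29.9%) and 10391 lower (32.2%). Leaving out 1 library gave 17494 to 20259 higher and 7175 to 8763 lower, the last without the female tip. With 1 library fewer the rule has fewer conditions to meet, so this rise was built in. The count of 0 transcripts called by edgeR became 2541 higher and 3463 lower with the sections as 2 samples, and 289 and 965 with DESeq2. Leaving out 1 library gave 0 to 924 higher and 0 to 2639 lower. Values above 0 arose where a tip was left out and the sections stood as 2 samples (583 higher and 2278 lower without the male tip, 924 and 2639 without the female tip), where the lone tip is assumed to vary like the sections. Scaling by RLE, by library size only, no filter and all targets kept 0 calls.

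Median fitted log2 fold changes of lists moved up with scaling by library size only: nerve from 0.22 to 0.66, zinc finger from 0.12 to 0.56, DNA methylation from 0.19 to 0.62, histone methylation from 0.07 to 0.51, extended histone methyltransferases from 0.63 to 1.06 and histone acetylation from 0.04 to 0.48. The median of cilia turned from -0.02 to 0.42 with library size only and to 0.036 with the sections as 2 samples. Among 68 named ratios, the deposited TPM turned the sign for MKX (-0.004) and Ocbimv22009989m (-0.013), and TMM scaling turned none. The size of the ratios did depend on the scaling. With TMM scaling the log2 ratio went from 0.68 to 0.24 for DNMT1 and from -2.61 to -3.08 for calmodulin. MKX, NOTC2 and Ocbimv22009989m overlapped between the groups with TMM scaling and so no longer met the rule. Summing neighbouring identifiers, chosen after seeing the data, turned none. Depth limits the low levels: 3 counts equal 0.537 to 0.849 TPM in the 4 libraries for an effective length of 1000 bases.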
